A study of Mus musculus with 8 samples.

Results

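Genes of the mitochondrial ribosome and of the import machinery of mitochondria were examined in the liver of young mice with cystic fibrosis (CF). The genes were those whose symbol in the platform annotation starts with Mrpl, Mrps, Timm or Tomm, with 1 probe per gene, selected on the highest mean level over the 8 arrays. This gave 99 genes of the 16593 named genes on the array, 76 with a ribosomal prefix and 23 with an import prefix. The ribosomal genes were 47 Mrpl, called large subunit below, and 29 Mrps, called small subunit. The import genes were 16 Timm and 7 Tomm. These groups follow the symbol and not the place of the protein, which differs for some genes, such as Mrps36 and Timmdc1. The mean over the arrays, which chose the probe, is therefore no result, and the gene set itself was proposed with earlier results of these data known.

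The study used 3-week-old C57BL/6 females. In 4 of them Cftr, which encodes an epithelial anion channel, carried ΔF508, the common human CF allele, and 4 were wild-type (WT) littermates. From weaning at day 21 until death at day 23 mice of both genotypes received enriched chow and, instead of water, dilute Colyte, an osmotic laxative of polyethylene glycol and salts. RNA of the whole liver was read on single-colour bead arrays, 1 array per replicate, and expression is given as the deposited, quantile-normalized log2 level. Each difference is the CF mean minus the WT mean, given with its standard error (SE) from limma, and a gene is said to have risen or fallen where its p, adjusted by Benjamini-Hochberg over all 12923 tested probes, was under 0.05. Nothing in the labels says whether replicates were kept or prepared apart, and the p-values measure the spread between these samples. In whole-liver RNA, fewer cells of a type and less RNA per cell cannot be told apart.

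Mitochondria keep a small genome, and the mitochondrial ribosome translates its messages, which encode core subunits of the respiratory chain. All proteins of this ribosome are encoded in the nucleus, made in the cytosol and imported. The TOM complex of the outer membrane is the entry gate, the TIM23 complex takes up proteins with a cleavable presequence, the TIM22 complex inserts metabolite carriers into the inner membrane, and small TIM chaperones escort hydrophobic precursors across the space between the membranes. Hepatocytes are rich in mitochondria and use them for fatty acid oxidation, ketone synthesis and the urea cycle.

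Hepatocyte markers served as a check of the tissue, and 9 of the 10 were above background with 0 changed between genotypes. Their median level was 14.37, near the highest level of any tested gene, 14.64. A change can hardly show at that level, so the lack of calls there says little about hepatocyte content. Lower markers were Cps1 (mean 13.72 in WT and 13.65 in CF), Hnf4a (11.33 and 11.54) and Alb (7.97 and 7.92). None of these passed, and Fgb was the marker not tested. Libraries WT 3 and CF 1 stood apart from the others on the second principal component, which held 21.2% of the variance, and had the highest mean level of exocrine pancreas and intestine markers, at 12.01 and 11.66 against 7.13 to 9.92 in the other 6 libraries. Results are therefore also given without these libraries. Of the intestine genes in this set Fabp2 and Vil1 were not tested. Lgals4 was at 7.93 in WT 3, below 8.07 in WT 1, and rose in CF (adjusted p = 0.0187 by limma). The high means of WT 3 and CF 1 are thus to be read for the pancreas genes, such as Ctrb1 (12.16 and 12.75). The mean level of liver endothelial markers was 9.44 to 9.60 in CF and 9.08 to 9.23 in WT, with 2 of the 7 tested markers higher in CF, and the part of this in the results below was not tested. Of 9144 genes tested, 19.8% changed, 11.0% higher in CF and 8.79% lower.

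The ribosomal genes as a group lay close to all genes, whereas several import genes were higher in CF. Of the 99 genes, 87 were above background, each of them on all 8 arrays, and the other 12 were not tested. Among the 70 tested ribosomal genes 8 rose (11.4%, beside 11.0% of all genes) and 3 fell (4.29%, beside 8.79%). Among the 17 tested import genes 6 rose (35.3%) and 1 fell (5.88%). The median difference was 0.03 for the ribosomal genes and 0.20 for the import genes, beside 0.02 for all tested genes. Within the import genes the medians had opposite signs, 0.20 for 12 Timm and -0.16 for 5 Tomm genes. Without CF 4 the import median was 0.11 and the ribosomal median -0.02, without WT 3 the ribosomal median was -0.01, and with no filter on dim probes the import median was 0.13. The genes of each group come from the same 8 libraries and are not replicates, and the contrast between ribosome and import was not tested. With both WT 3 and CF 1 left out, 4 ribosomal genes rose and 1 fell, and 3 import genes rose and 0 fell. The ribosomal risers numbered 4 without WT 3, WT 4 or CF 2 and 5 without CF 4, and the import risers 3 without WT 4.

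**Figure D1:**
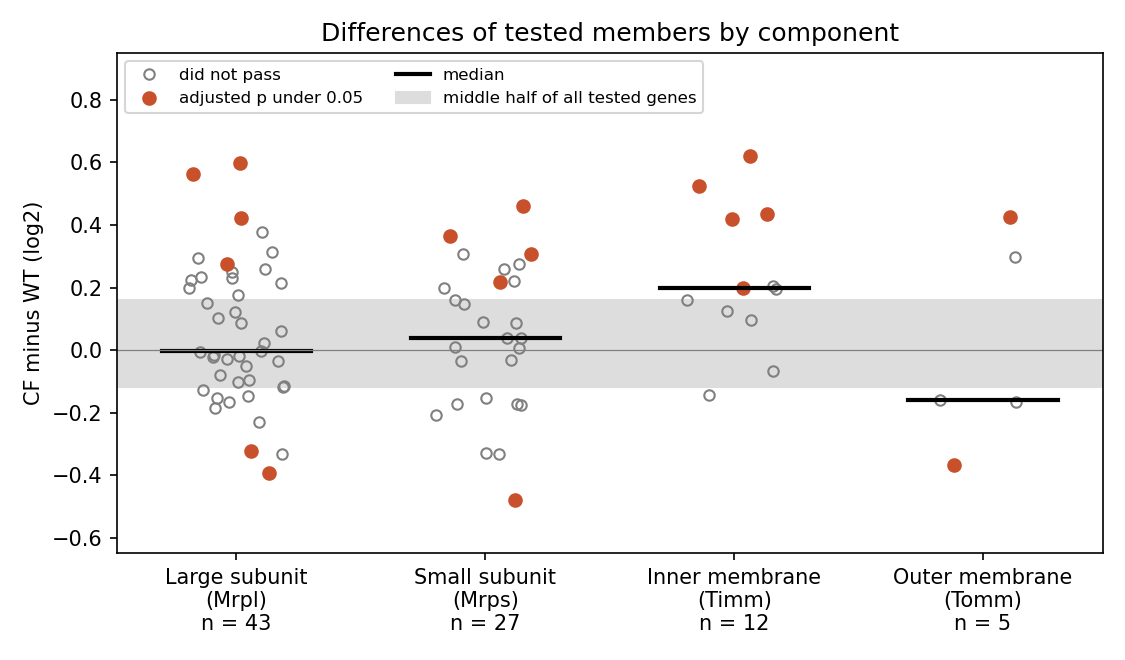
CF minus WT difference on the log2 scale for each tested gene, split by symbol into large subunit (Mrpl), small subunit (Mrps), Timm and Tomm genes. Filled points passed an adjusted p of 0.05, black lines are medians, and the grey band is the interquartile range of all tested genes. The Timm median lies at 0.20, while the medians of the large and small subunit lie at -0.00 and 0.04, inside the band, and the Tomm median at -0.16, below it.

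The CF arrays lay above all WT arrays for 10 ribosomal genes (13.9% of all tested genes did so) and below them for 4 (10.5% of all tested genes). For the import genes the same counts were 7 above and 2 below. No difference among the 87 genes reached 1 on the log2 scale, and 4 exceeded 0.5. Of all 9144 tested genes, 172 exceeded 1 and 848 exceeded 0.5, and the extremes were -4.47 and 2.73. The median size of a difference, regardless of sign, was 0.175 for the 87 genes and 0.140 for all tested genes. The median SE of the 87 differences was 0.09, and differences of about 0.2 passed only for genes with a smaller spread, such as Timm21 and Mrps31.

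**Figure D2:**
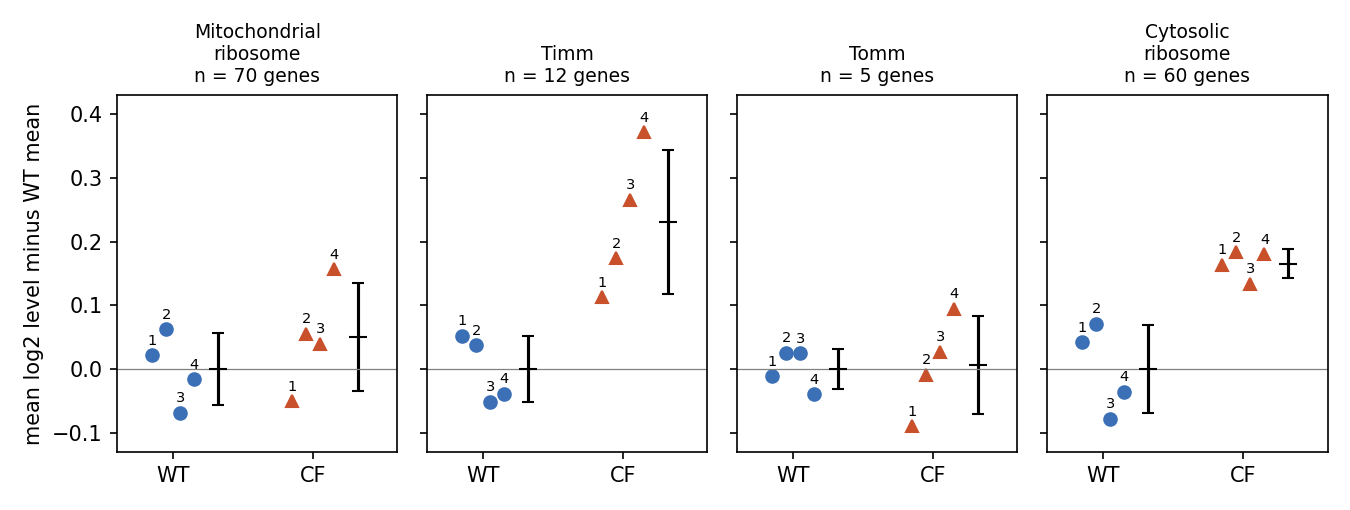
Mean log2 level of each gene group on each array, minus the WT mean of the group. Circles are WT and triangles CF arrays, numbered by replicate, and black bars are the mean and SD of 4 arrays. The 4 CF arrays lie above the 4 WT arrays for the Timm genes and overlap them for the mitochondrial ribosome and the Tomm genes. The cytosolic ribosome, shown for comparison, does not overlap.

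Small TIM genes made up most of the import genes that rose. This family has 7 genes here, of which Timm13 and Timm8a2 were not above background. Of the other 5, Timm9, Timm10, Timm8a1 and Timm10b rose and Timm8b did not pass. The family was set apart after its values were seen, and its counts are a description.

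Timm9, which with Timm10 forms the main hexameric chaperone of the intermembrane space, was at 11.03, 10.77, 10.75 and 10.66 in WT 1 to WT 4 and at 11.26, 11.33, 11.47 and 11.64 in CF 1 to CF 4. Every CF array was above every WT array. Its mean was 1.54-fold higher in CF (difference 0.62 ± 0.11 SE, adjusted p = 0.0042, n = 4 per genotype, limma). The dimmer probes of Timm9 gave 0.55 and 0.53, both past the threshold, and the call held in all 8 fits that left out 1 array and without WT 3 and CF 1 (adjusted p = 0.022).

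Timm10, the partner of Timm9, was at 9.34, 9.10, 9.03 and 9.05 in WT and at 9.44, 9.35, 9.93 and 9.91 in CF. The genotypes did not overlap, but CF 1 and CF 2 lay barely above WT 1, and CF 3 and CF 4 carried most of the difference of 0.52 ± 0.14 SE (1.44-fold, adjusted p = 0.033 by limma). The call of Timm10 was lost without WT 2, WT 3, WT 4, CF 3 or CF 4, with adjusted p of 0.0708, 0.0859, 0.0763, 0.0749 and 0.0774, and with both WT 3 and CF 1 left out (0.0857).

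Timm8a1, the mouse counterpart of the gene mutated in human deafness-dystonia syndrome, was at 11.25, 10.98, 11.19 and 11.01 in WT and at 11.42, 11.38, 11.77 and 11.62 in CF. All CF arrays were above all WT arrays, with a difference of 0.44 ± 0.10 SE (1.35-fold, adjusted p = 0.0182 by limma, and 0.0495 without WT 3 and CF 1). Its partner protein is the product of Timm13, whose probe was not above background on any array. Timm8b, a close relative of Timm8a1, was at 11.49 ± 0.09 (SD, n = 4) in WT and 11.42 ± 0.21 in CF, and its dimmer probe also gave a small negative difference of -0.09.

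Timm10b, the small TIM bound to the TIM22 complex, was at 9.21, 9.44, 9.04 and 9.17 in WT and at 9.63, 9.67, 9.52 and 9.70 in CF. CF 3, the lowest CF array, lay just above WT 2, and the difference was 0.42 ± 0.09 SE (1.34-fold, adjusted p = 0.0127 by limma, and 0.0783 without WT 3 and CF 1). Of its 3 tested probes a second rose as well (0.33), while the dimmest had -0.24 and did not pass. With all 3 probes averaged, Timm10b had adjusted p = 0.14.

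Promoter windows of the 4 small TIM genes that rose are shown because each of these genes passed in the same direction, beside those of Mrps26, the ribosomal gene with the lowest adjusted p, and Mrps21, the ribosomal gene that fell most. The windows are from RefSeq (build GRCm38.p6), run 5′ to 3′ on the strand of the gene from 250 bases before to 50 after its start, and are credited to that source. Capitals mark matches to CCGGAAG (the core of ETS factors such as GABP), the palindromic NRF1 motif, ATGGCGGC (YY1) and CACGTG (E-box), each searched on both strands, with overlapping matches kept.
Timm9 (chr12:71136626-71136925, minus strand): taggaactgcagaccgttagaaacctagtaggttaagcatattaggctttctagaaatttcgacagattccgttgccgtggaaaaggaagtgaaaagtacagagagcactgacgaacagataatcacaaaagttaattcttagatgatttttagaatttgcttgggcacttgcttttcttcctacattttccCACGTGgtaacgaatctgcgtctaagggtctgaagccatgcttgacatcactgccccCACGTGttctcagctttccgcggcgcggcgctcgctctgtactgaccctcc
Timm10 (chr2:84826771-84827070, plus strand): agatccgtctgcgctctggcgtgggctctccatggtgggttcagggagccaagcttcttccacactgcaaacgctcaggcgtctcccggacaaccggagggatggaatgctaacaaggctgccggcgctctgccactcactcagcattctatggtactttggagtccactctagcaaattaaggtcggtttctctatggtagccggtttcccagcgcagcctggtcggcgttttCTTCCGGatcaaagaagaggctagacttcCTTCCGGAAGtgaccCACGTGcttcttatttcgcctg
Timm8a1 (chrX:134541621-134541920, minus strand): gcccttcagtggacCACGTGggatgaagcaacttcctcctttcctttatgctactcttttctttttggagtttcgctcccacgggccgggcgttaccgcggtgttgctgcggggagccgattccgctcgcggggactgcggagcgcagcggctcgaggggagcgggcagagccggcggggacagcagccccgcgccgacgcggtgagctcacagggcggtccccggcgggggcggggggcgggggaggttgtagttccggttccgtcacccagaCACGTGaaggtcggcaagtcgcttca
Timm10b (chr7:105640195-105640494, plus strand): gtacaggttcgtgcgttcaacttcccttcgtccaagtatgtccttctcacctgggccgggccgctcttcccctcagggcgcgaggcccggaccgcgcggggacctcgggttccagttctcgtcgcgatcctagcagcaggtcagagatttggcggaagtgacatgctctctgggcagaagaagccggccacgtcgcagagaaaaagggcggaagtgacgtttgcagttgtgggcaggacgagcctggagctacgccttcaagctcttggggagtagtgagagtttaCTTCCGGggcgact
Mrps26 (chr2:130563507-130563806, plus strand): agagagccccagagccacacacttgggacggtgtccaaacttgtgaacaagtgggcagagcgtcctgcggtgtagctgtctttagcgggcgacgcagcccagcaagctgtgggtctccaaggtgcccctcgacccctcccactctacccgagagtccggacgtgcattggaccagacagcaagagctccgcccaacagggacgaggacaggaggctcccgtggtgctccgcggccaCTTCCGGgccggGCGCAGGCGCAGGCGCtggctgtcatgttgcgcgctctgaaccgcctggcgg
Mrps21 (chr3:95871465-95871764, minus strand): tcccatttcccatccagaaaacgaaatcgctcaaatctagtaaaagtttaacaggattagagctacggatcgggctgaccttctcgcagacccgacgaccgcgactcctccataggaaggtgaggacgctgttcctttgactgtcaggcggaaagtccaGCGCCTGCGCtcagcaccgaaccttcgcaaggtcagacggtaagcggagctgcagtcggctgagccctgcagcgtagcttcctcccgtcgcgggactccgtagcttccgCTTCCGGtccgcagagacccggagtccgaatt

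Windows were listed for 88 of the 99 genes, 96 windows in all. CCGGAAG was found in 38.5% of them, beside 8.86% of all 32851 listed windows and 11.6% of those of protein-coding genes. The NRF1 motif was found in 14.6% (4.6% of all windows and 6.38% of those of protein-coding genes). ATGGCGGC was found in 14.6% (2.24% of all and 3.02% of those of protein-coding genes). The E-box CACGTG was found in 11.5% of the windows of these genes, in 7.15% of all windows and in 7.84% of those of protein-coding genes. It occurred in 4 of the 13 windows of genes that rose, those of Timm9, Timm10, Timm8a1 and Mrpl20. Among genes that did not pass it occurred in 6 of the 67 windows, which come from 61 genes. Overlapping windows of a gene were counted apart, among them those of Mrpl2, which each hold an E-box, and those of Tomm34. ATGGCGGC occurred in 14 of the 67 windows of genes that did not pass and in 0 of the 17 windows of genes that rose or fell. CCGGAAG occurred in 6 of the 13 windows of genes that rose, 4 of the 4 of genes that fell and 24 of the 67. For the NRF1 motif these counts were 3, 2 and 6. For GGGCGG (GC box), also searched, they were 7, 3 and 35. No split by call was tested. These are matches of letters, not measured binding, and the counts are small.

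In the inner membrane translocases, differences outside the small TIM family were smaller. Timm21, a TIM23 subunit that contacts the TOM complex and the respiratory chain, was at 9.93, 9.89, 9.87 and 9.97 in WT and at 10.06, 10.12, 10.14 and 10.13 in CF. The 2 genotypes did not overlap, and each spread by only 0.04 (SD), so a difference of 0.20 ± 0.06 SE passed (1.15-fold, adjusted p = 0.0377 by limma). It lost its call in each of the 8 fits without 1 array (adjusted p from 0.0564 without WT 1 to 0.104 without WT 3) and with both WT 3 and CF 1 left out (0.149), and its other 3 tested probes gave 0.08, 0.01 and -0.03. The channel proteins Timm17a and Timm17b had differences of 0.20 ± 0.11 SE and 0.13 ± 0.08 SE. Timm50, the presequence receptor of TIM23, and Timm44, which tethers the import motor, had 0.20 ± 0.13 SE and 0.10 ± 0.07 SE. Timm29, of the TIM22 complex, had 0.16 ± 0.08 SE with all CF arrays above all WT arrays, and none of these 5 passed. Timmdc1 shares the prefix but is an assembly factor of respiratory complex I, and it had -0.14 ± 0.11 SE. The probes of the channel subunits Timm23 and Timm22 were not above background on any array, and nothing can be said of these genes.

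Of the outer membrane genes, 1 rose, 1 fell and 3 of the 5 tested did not pass. Tomm22, the central receptor of the TOM complex, was at 9.82, 9.79, 9.77 and 9.68 in WT and at 10.004, 10.04, 10.25 and 10.47 in CF. All CF arrays were above the WT arrays, which lay within a narrow range, and the difference was 0.43 ± 0.10 SE (1.34-fold, adjusted p = 0.0198 by limma, 0.0467 without WT 3 and CF 1, and 0.052 without WT 4). Tomm34, a cytosolic co-chaperone of import precursors and not a pore subunit, went the other way. It was at 7.88, 8.05, 8.06 and 7.95 in WT and at 7.52, 7.77, 7.61 and 7.58 in CF, without overlap. Its difference of -0.37 ± 0.08 SE (adjusted p = 0.0101 by limma, and 0.0853 without WT 3 and CF 1) was matched by -0.40 on its dimmer probe, which also passed. Tomm70a, the receptor for carrier precursors, had 0.30 ± 0.14 SE with overlapping groups and WT 1 the lowest array at 7.71. The small subunits Tomm6 and Tomm7 had -0.17 ± 0.08 SE and -0.16 ± 0.12 SE and did not pass. Tomm40, which forms the pore, was above background on 1 array and the receptor Tomm20 on none, so neither could be tested.

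**Figure D3:**
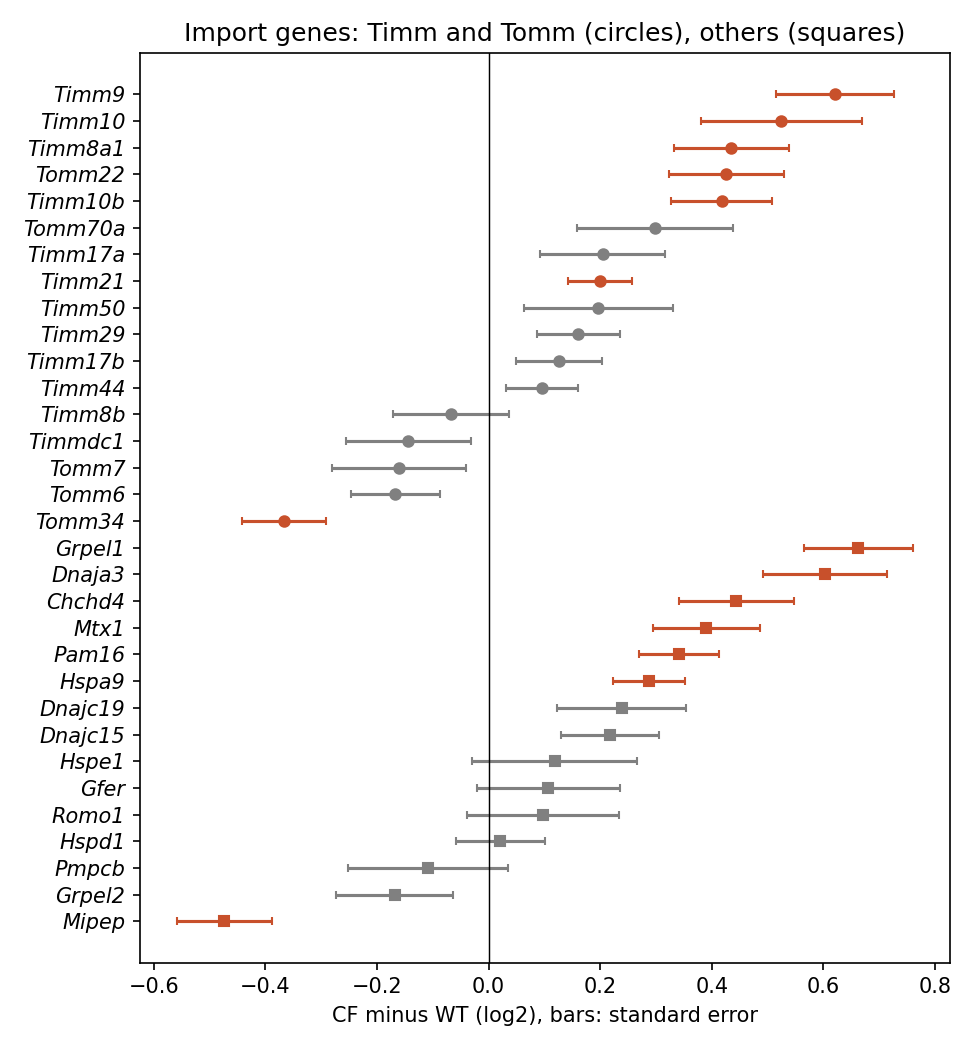
CF minus WT difference with its SE for the tested Timm and Tomm genes (circles) and for import genes under other symbols (squares). Coloured points passed an adjusted p of 0.05. Grpel1 (0.66), Timm9 (0.62) and Dnaja3 (0.60) have the largest differences of the genes plotted, and Mipep (-0.47) and Tomm34 (-0.37) the lowest.

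Import genes that carry other symbols also included risers. Of the 20 such genes on the array 15 were tested. Of these 6 rose (beside 11.0% of all tested genes) and 1 fell (beside 8.79%), with a median difference of 0.22 beside 0.02, and without WT 3 and CF 1 the counts were 2 and 1. Grpel1, the exchange factor of the import motor, was at 10.54, 10.83, 10.56 and 10.54 in WT and at 11.28, 11.40, 11.06 and 11.37 in CF, a gap between the groups in every array (difference 0.66 ± 0.10 SE, adjusted p = 0.00225 by limma). Hspa9, the mitochondrial Hsp70 that Grpel1 serves, rose by 0.29 ± 0.06 SE. Of the J-protein genes in this list, Dnaja3 rose by 0.60 ± 0.11 SE. Dnajc19 and Dnajc15 had 0.24 ± 0.12 SE and 0.22 ± 0.09 SE and did not pass. Pam16, a regulator of the motor, rose by 0.34 ± 0.07 SE. Chchd4, whose product oxidises the cysteines of small TIM proteins on their entry, rose by 0.44 ± 0.10 SE, and Mtx1, of the outer membrane sorting machinery, by 0.39 ± 0.10 SE. The gene that fell was Mipep, a peptidase that trims imported precursors (-0.47 ± 0.09 SE, adjusted p = 0.00535). The matrix chaperonin genes Hspd1 and Hspe1 had 0.02 and 0.12 and did not pass. Hspa9, Chchd4, Mtx1, Dnajc19, Dnajc15, Hspd1 and Hspe1 were named outside the rule of up to 4 changed genes per list.

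In the mitochondrial ribosome 59 of 70 tested genes did not pass, and changes went both ways. Mrps26, a small subunit protein specific to mitochondria, had the lowest adjusted p of the 87 genes. It was at 9.49, 9.39, 9.34 and 9.31 in WT and at 9.76, 9.83, 9.79 and 9.99 in CF, with a clear gap between the groups. The difference was 0.46 ± 0.07 SE (1.38-fold, adjusted p = 0.00306 by limma, and 0.0247 without WT 3 and CF 1), and a second probe gave 0.41. Mrps17, the counterpart of a bacterial small subunit protein, was at 11.32, 11.19, 11.08 and 11.24 in WT and at 11.43, 11.61, 11.54 and 11.73 in CF, without overlap (0.37 ± 0.08 SE, adjusted p = 0.0154). Mrps31 and Mrps9 rose by less, 0.22 ± 0.06 SE and 0.31 ± 0.09 SE, and Mrps9 was named after its value was seen. Mrps31 lost its call without WT 2, WT 3, WT 4, CF 2 or CF 3 (adjusted p of 0.058, 0.065, 0.0546, 0.0631 and 0.0608), and Mrps9 when WT 1, WT 3 or WT 4 was left out (0.0648, 0.108 and 0.0978) or any of CF 2, CF 3 and CF 4 (0.0969, 0.0907 and 0.0774). With both WT 3 and CF 1 left out, Mrps31 and Mrps9 had adjusted p of 0.112 and 0.108. The dimmer tested probes of Mrps31 gave 0.12 and 0.13 and did not pass, nor did the mean of its probes (adjusted p = 0.126).

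Mrps21, the counterpart of a bacterial small subunit protein, was the gene that fell most. It was at 10.11, 10.18, 9.82 and 10.01 in WT and at 9.31, 9.67, 9.56 and 9.67 in CF, so that even the lowest WT array, WT 3, was above all CF arrays. The difference was -0.48 ± 0.11 SE (1.39-fold lower, adjusted p = 0.0136 by limma, and 0.0204 without WT 3 and CF 1). Mrps6 and Mrps15, other relatives of bacterial proteins, both had -0.33 and did not pass (adjusted p = 0.0839 and 0.0665). Mrps6 passed without WT 3 (adjusted p = 0.0488) and Mrps15 without CF 3 (0.0267), while Mrps28 (0.31) passed without WT 2 (0.0267). Mrps12, of the decoding centre, had -0.15 ± 0.07 SE. The 3 mammalian relatives of a single bacterial protein, Mrps18a, Mrps18b and Mrps18c, had -0.17, 0.26 and 0.22 and none passed. The differences of Mrps5, Mrps7, Mrps16 and Mrps22 lay between -0.17 and 0.09 and none of them passed. The probe of Mrps36, whose product is now assigned to a matrix dehydrogenase complex and not to the ribosome, was not above background.

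Of the 43 tested Mrpl genes, 4 rose (9.30%, beside 11.0% of all tested genes) and 2 fell (4.65%, beside 8.79%). Mrpl20, the counterpart of a bacterial assembly protein of the large subunit, was at 10.01, 10.16, 10.22 and 10.04 in WT and at 10.47, 10.59, 10.71 and 11.05 in CF. No CF array fell into the WT range, CF 4 was the highest, and the difference was 0.60 ± 0.12 SE (1.51-fold, adjusted p = 0.0084 by limma, and 0.0174 without WT 3 and CF 1). Mrpl55, a protein specific to mitochondria, was at 8.29, 8.46, 8.11 and 8.22 in WT and at 8.61, 8.84, 8.81 and 9.07 in CF, again without overlap (0.56 ± 0.11 SE, adjusted p = 0.00794, and 0.0201 without WT 3 and CF 1). Mrpl17 rose by 0.42 ± 0.12 SE although CF 3, at 11.17, lay below WT 2, at 11.26. Its call was lost when WT 1, WT 3 or WT 4 was left out (adjusted p of 0.0657, 0.0897 and 0.0874) or any of CF 1, CF 2 and CF 4 (0.0798, 0.0856 and 0.0847), and with both WT 3 and CF 1 left out (0.168). Mrpl3 rose by 0.28 ± 0.08 SE, but did not pass when WT 2, WT 3 or WT 4 was left out (adjusted p of 0.0804, 0.12 and 0.0957), nor when CF 2, CF 3 or CF 4 was (0.0999, 0.061 and 0.0972), nor with both WT 3 and CF 1 left out (0.0968). Its dimmer probe gave 0.09, and the mean of both probes did not pass (adjusted p = 0.0758).

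Both large subunit genes that fell had low signals. Mrpl15 was at 7.41, 7.38, 7.40 and 7.23 in WT and at 6.94, 7.01, 6.75 and 7.15 in CF, without overlap (-0.39 ± 0.09 SE, adjusted p = 0.0167 by limma, and 0.104 without WT 3 and CF 1). Mrpl57 was at 7.01, 6.81, 6.95 and 7.02 in WT and at 6.63, 6.81, 6.47 and 6.59 in CF, where CF 2 came up to the level of WT 2 and CF 3, at 6.47, lay at the background level. Its difference of -0.32 ± 0.09 SE lost its call when WT 1, WT 3 or WT 4 was left out (adjusted p of 0.0615, 0.0679 and 0.0695) or any of CF 1, CF 3 and CF 4 (0.0585, 0.0639 and 0.0607), and with both WT 3 and CF 1 left out (0.126). Mrpl12, which also binds the mitochondrial RNA polymerase, had 0.21 ± 0.10 SE, and Mrpl11, Mrpl13 and Mrpl28 had 0.23, 0.10 and -0.01. None of these 4 passed. The probes of Mrpl19 and Mrpl45 were not above background on any array, nor were those of Mrpl21, Mrpl32 and Mrps14.

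**Figure D4:**
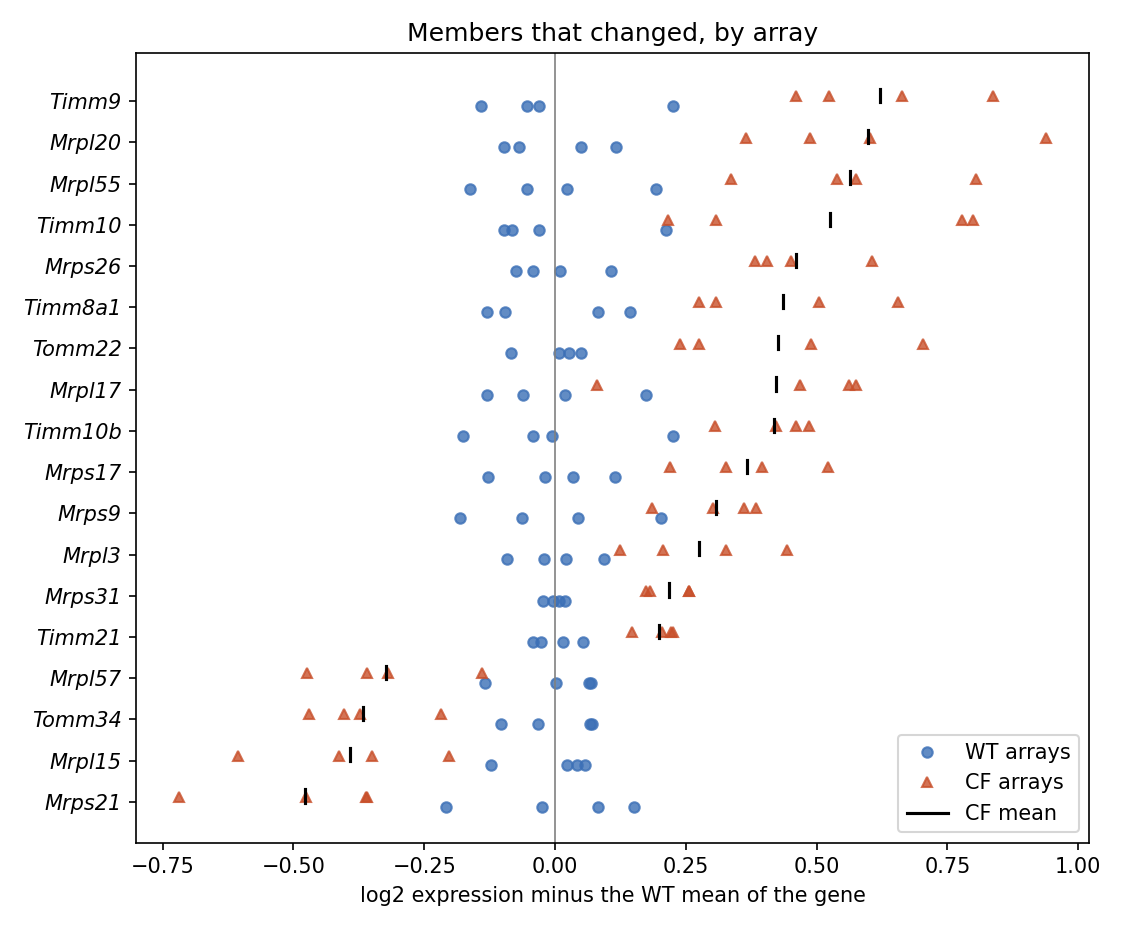
Log2 level of the 18 genes that rose or fell, on each array, minus the WT mean of the gene. Circles are WT arrays, triangles CF arrays and black ticks CF means. The groups overlap for Mrpl17 and Mrps9 and do not overlap for the other 16 genes.

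For 27 of the genes more than 1 probe was tested. All probes of the gene had the same sign for 14 of them and opposite signs for 13, most of these with small differences. Among the genes that rose or fell, Timm9, Mrps26 and Tomm34 had every tested probe past the threshold. Mrpl49, named after its values were seen, as were Timm29, Timm8a2 and the untested Mrpl21, Mrpl32 and Mrps14, had 0.02 on its brightest probe and 0.29 on another, which passed.

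**Figure D5:**
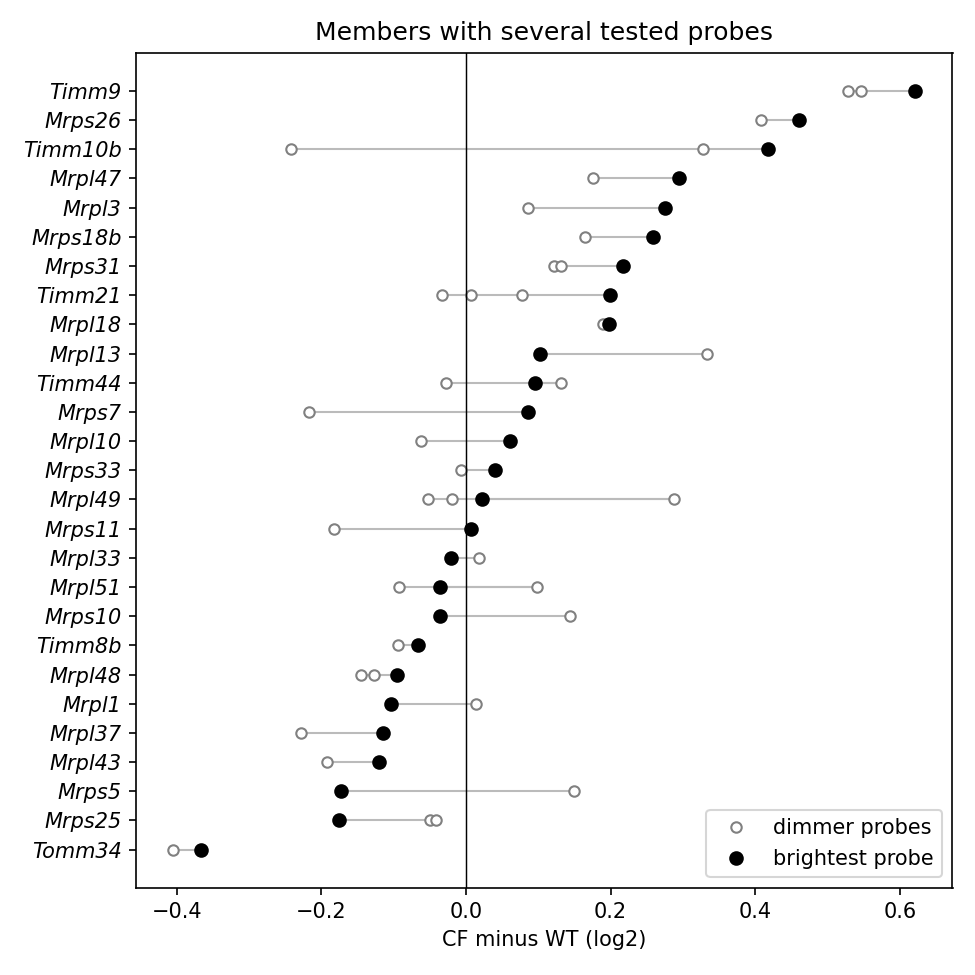
CF minus WT difference of every tested probe for the 27 genes with more than 1. Filled points are the brightest probe of the gene and open points the dimmer ones. The 3 probes of Timm9 lie at 0.53 to 0.62, whereas those of Timm10b run from -0.24 to 0.42.

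Across arrays the groups had different profiles. The mean level of the 12 tested Timm genes was 9.56, 9.55, 9.46 and 9.47 in WT 1 to WT 4 and 9.62, 9.68, 9.77 and 9.88 in CF 1 to CF 4, without overlap. That of the 70 ribosomal genes was 9.81, 9.85, 9.72 and 9.77 in WT and 9.73, 9.84, 9.82 and 9.94 in CF, where CF 1 lay below 3 of the WT arrays. The Mrpl and Mrps genes had close means on every array, 9.78 ± 0.05 and 9.79 ± 0.06 (SD, n = 4) in WT and 9.84 ± 0.08 and 9.83 ± 0.09 in CF. For comparison, 18 of 60 tested genes of the cytosolic ribosome rose (30.0%, beside 11.0% of all tested genes) and 0 fell (beside 8.79%), with a median of 0.19. Of 90 tested genes of oxidative phosphorylation and its assembly 11 rose (12.2%, near the 11.0% of all tested genes) and 5 fell (5.56%, beside 8.79%), with a median of 0.10. Differences between these sets were not tested.

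Other genes of mitochondrial translation are given beside 11.0% of all tested genes that rose and 8.79% that fell, and each list is small. Among the translation factors 0 of 13 tested genes rose and 2 fell, namely Gfm2 (-0.55 ± 0.09 SE, adjusted p = 0.00333) and Mrrf (-0.46 ± 0.11 SE, adjusted p = 0.0199), both of which encode factors that recycle the ribosome after termination. The count that fell was 1 without WT 3, without WT 4 and with both WT 3 and CF 1 left out. Of 12 tested assembly factors and ribosomal proteins under other symbols, 0 rose and 2 fell, Noa1 (-0.47 ± 0.13 SE) and Mterf4 (-0.32 ± 0.09 SE), and the count that fell was 0 without WT 1, WT 2, WT 3 or CF 1 and 1 without WT 4 or CF 3. Of 12 tested mitochondrial aminoacyl-tRNA synthetases, Iars2 and Mars2 rose by 0.30 and 0.26 (both SE 0.08) and Sars2 fell (-0.21 ± 0.06 SE). All 3 lost their calls without WT 1, WT 2, CF 1 or CF 3 and without WT 3 and CF 1 together, and 2 of the 3 at most passed without WT 3, WT 4, CF 2 or CF 4.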

How the data were processed

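The values analysed were the log2 expression values deposited by the authors, 25697 probes on 8 arrays. GenomeStudio is named per the submitters' processing notes, and the background correction and transform are not given in the sources used here. The sorted values of the arrays differed by at most 0.000351, as quantile normalization leaves them, which hides any change shared by most transcripts. The deposited scanner table has 8 signal columns named by chip position, which no label ties to samples, and was not used.

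The background level, 6.47, lay 1.645 spreads (0.173 each, measured on the lower flank) over the most frequent value, 6.18. The test covered the 12923 probes that exceeded it on 4 or more arrays and used limma 3.58.1 under R 4.3.3 (two-sided, genotype as the one factor, moderated by eBayes, Benjamini-Hochberg adjustment). On simulated data for this comparison (12923 probes), 67, 67 and 66 probes were changed by 0.25, 0.5 and 1 on the log2 scale. The test recovered 5.97%, 62.7% and 95.5% of these, with 5 false calls. Far fewer probes were changed there than the 2474 called in the data. This makes the adjustment stricter, so the recovered shares need not hold for the data. Precision is limited by the number of arrays.

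Gene symbols came from the platform annotation, where 23978 probes had 1 symbol. Named genes are up to 12 that rose and 12 that fell in order of adjusted p, a list of members fixed by role, up to 4 changed genes of each pathway list, and the regulators. The members and lists were chosen with earlier results of these data known. The cytosolic ribosome set leaves out Rps6k kinases. Motif counts are over listed windows. Alternatives covered the filter, a replicate block, cyclic loess, array weights, the variance prior, the probe rule, a floor at background and omitted arrays.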

Additional observations from a re-analysis of the deposited data

Results flagged for a closer look

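In 4 of the 92 groups of 4 arrays examined, 1 array lay far from the other 3 by Dixon's ratio, and chance alone gives about 1 in 20. Tomm7 was at 10.99 in WT 1 and at 10.45 to 10.51 in the other WT arrays. Tomm6 was at 8.36 in CF 1 and at 8.56 to 8.60 in the other CF arrays. Mrps12 was at 11.34 in WT 4 and at 11.49 to 11.52 in the other WT arrays. Mrps5 was at 9.00 in CF 3 and at 8.72 to 8.76 in the other CF arrays. None of these 4 genes had passed the test.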

How the results depend on the processing

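Among the Mrpl, Mrps, Timm and Tomm genes that passed, no difference changed sign under any alternative run. For genes of the other lists the sign was not examined, and only their counts without arrays were recomputed. Equal replicate numbers are not stated to pair animals, and deviations of equal-numbered arrays correlated at -0.33, 0.06, -0.29 and 0.09. With the replicate number as a block, 1440 probes changed against 2474, 4 ribosomal genes rose against 8 and 3 import genes against 6. Cyclic loess left 4 ribosomal risers and turned the ribosomal median from 0.03 to -0.01. Without WT 3 and CF 1 together, 1060 probes changed, 4 ribosomal genes rose and 1 fell, and 3 import genes rose and 0 fell. Without single arrays the counts were 1612 (without WT 3) to 2090 probes, 4 (without WT 3, WT 4 or CF 2) to 11 ribosomal genes higher and 2 to 4 lower, and 3 (without WT 4) to 5 import genes higher and 1 lower. The ribosomal median ran from -0.02 to 0.07 and the import median from 0.11 (without CF 4) to 0.22. The causes were not tested. With all tested probes of a gene averaged, 4 import genes rose, and with no filter on dim probes 6 ribosomal genes did and the import median was 0.13. In the simulation, which had far fewer changed probes than the data, differences of the smallest size were seldom called. In the data some differences under that size passed, such as those of Timm21 (0.20) and Mrps31 (0.22).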

Other observations

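Among 16 tested regulators of mitochondrial gene expression and biogenesis, 4 rose and 0 fell, beside 11.0% and 8.79% of all tested genes. Ppargc1a, a coactivator of mitochondrial biogenesis and the fasting response, was at 7.80, 7.57, 7.37 and 7.65 in WT and at 8.97, 7.93, 8.53 and 7.98 in CF (difference 0.75 ± 0.22 SE, adjusted p = 0.038 by limma). All CF arrays were above all WT arrays, with CF 1 the highest. Esrra, a nuclear receptor that works with it, rose by 0.52 ± 0.11 SE, Polg2, a subunit of the mitochondrial DNA polymerase, by 0.47 ± 0.10 SE, and Polrmt, the mitochondrial RNA polymerase, by 0.25 ± 0.07 SE. Nrf1 (0.16), Gabpa (-0.06), Tfam (0.06), Ppargc1b (0.04), Tfb2m (0.15), Ssbp1 (-0.02), Gabpb1 (-0.02), Gabpb2 (0.04), Polg (-0.02), Twnk (-0.13), Mterf2 (0.12) and Mterf1a (-0.18) did not pass, and Myc and Yy1 were not tested. The number that rose was 3 without WT 1, CF 2 or CF 4, 2 without WT 2, WT 3, WT 4, CF 1 or CF 3, and 0 without WT 3 and CF 1 together.

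Among 11 tested mitochondrial proteases and quality control genes, 2 rose and 2 fell, beside the same shares of all tested genes. Atf5, a transcription factor of the mitochondrial stress response, rose by 0.39 ± 0.08 SE and Phb2, a prohibitin of the inner membrane, by 0.37 ± 0.08 SE. Spg7 and Yme1l1, which encode proteases facing the matrix and the intermembrane space, fell (-0.34 ± 0.08 SE and -0.33 ± 0.09 SE). The genes that fell numbered 0 without WT 2, WT 3 or CF 1 and 1 without WT 4 or CF 3, and 3 genes rose without CF 3. With WT 3 and CF 1 both left out, 0 genes rose and 0 fell.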
